A study of Mus musculus with 5 samples.

Results

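Luminal keratins, claudins and epithelial adhesion genes are described here in mammary tumours by 10 genes given by symbol: Krt8, Krt18, Krt19, Krt7, Epcam, Cdh1, Cldn3, Cldn4, Cldn7 and Cd24a. All 10 were found among the 38918 features of the deposited table, and all 10 were among the 9870 genes with a mean value of at least 10, which were tested. RNA sequencing was done on 3 tumours of offspring whose mothers ate a diet with 26% broccoli sprouts (maternal BSp) and on 2 tumours of offspring whose mothers ate a control diet. The maternal diet ran from conception to weaning, and the offspring of both groups were themselves untreated. All mice were of the FVB strain, carried an SV40 transgene and were 20 weeks old. The promoter that drives the transgene is not given in the sources used here. The labels do not say outright whether each library is a different animal, and p-values therefore reflect the spread between these libraries alone.

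The values used, called normalised reads below, are gene-level reads that the authors brought to the same total in every library. Recovered totals were 8459029, 61663199 and 13796272 reads in maternal BSp replicates 1, 2 and 3, against 1106813 and 3909583 reads in control replicates 1 and 2, a 55.7-fold range with both controls the shallowest. The total of control replicate 1, to which the other libraries were scaled, was taken as deposited and could not be checked. Genes of the salivary gland took 0.225% of reads in maternal BSp replicate 1 and 0.0659% in control replicate 1, against 0.0445% or less in the other libraries. The milk protein gene Csn3 read 1111 in maternal BSp replicate 3 and at most 18.8 elsewhere, while Csn2 was at 0 in all libraries except maternal BSp replicate 2, where it read 0.0359. Mitochondrial transcripts took 11.6% and 9.03% of reads in maternal BSp replicates 1 and 3, and between 2.41% and 2.58% in the other libraries. Lars2 and Gm26917 together took 0.770%, 0.117% and 1.13% of reads in maternal BSp replicates 1, 2 and 3, against 9.40% and 4.09% in control replicates 1 and 2, so that the groups did not overlap. The part of these differences in the results below was not tested.

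Keratins are intermediate filament proteins that assemble as pairs of a type II and a type I chain. In simple epithelia, and in the luminal cells that line mammary ducts and alveoli, the typical chains are the type II keratins 8 and 7 and the type I keratins 18 and 19, whereas basal cells use keratins 5, 14 and 17. Luminal cells are joined by E-cadherin, the product of Cdh1, in adherens junctions, and by claudins in tight junctions, which seal the space between cells. Epcam encodes a surface adhesion glycoprotein that is known to bind claudin-7, and Cd24a encodes a small surface glycoprotein, anchored by a lipid, that is used to sort mammary epithelial cells.

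Positions are from GENCODE M21 on GRCm38. Krt8 (chromosome 15, 101996698 to 102004482, minus strand) and Krt18 (chromosome 15, 102028180 to 102032027, plus strand) are neighbours with 23697 bases between them, and Krt7 lies on the same chromosome at 101411043 to 101430313. Krt19 is on chromosome 11 (100140810 to 100148665), as is Cldn7 (69964779 to 69967885). Cldn4 (chromosome 5, 134945119 to 134946934, minus strand) and Cldn3 (chromosome 5, 134986214 to 134987472, plus strand) are genes of 1 exon each, 39279 bases apart. Epcam is on chromosome 17 (87635979 to 87651129), Cdh1 on chromosome 8 (106603351 to 106670246) and Cd24a on chromosome 10 (43578284 to 43584265). Exons of genes on the opposite strand cover 101 bases of Krt8 exons, 77 bases of Krt7 exons and 40 bases of Cldn3 exons. As the strand setting of the counting is not given in the sources used here, reads in those stretches cannot be assigned, and the gene opposite Cldn3, Wbscr25, read at most 4 in any library.

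The 250 bases before the start of Cldn4, Cldn3 and Epcam are shown because Cldn4 varied over a wider range than its neighbour Cldn3 and Epcam varied least of the 10, as described below. Of the members 7 were matched in the promoter table, and Krt19, Cdh1 and Cd24a were not. The sequences are from RefSeq on GRCm38.p6, written along the strand of each gene. The windows are chr5:134946935-134947184 (minus strand) for Cldn4, chr5:134985964-134986213 (plus strand) for Cldn3 and chr17:87635729-87635978 (plus strand) for Epcam. Capitals mark matches on either strand to CAGGTG, an E-box of the kind bound by ZEB and SNAI repressors, or to GGGCGG, the GC box. The motif AACCGGTT of the GRHL factors was searched as well and is in none of these windows, and the matches shown do not overlap one another.
Cldn4: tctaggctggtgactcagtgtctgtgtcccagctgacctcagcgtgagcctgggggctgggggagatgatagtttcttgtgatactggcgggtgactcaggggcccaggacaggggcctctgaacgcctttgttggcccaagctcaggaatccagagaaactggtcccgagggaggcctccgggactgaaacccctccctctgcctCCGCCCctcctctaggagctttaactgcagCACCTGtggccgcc
Cldn3: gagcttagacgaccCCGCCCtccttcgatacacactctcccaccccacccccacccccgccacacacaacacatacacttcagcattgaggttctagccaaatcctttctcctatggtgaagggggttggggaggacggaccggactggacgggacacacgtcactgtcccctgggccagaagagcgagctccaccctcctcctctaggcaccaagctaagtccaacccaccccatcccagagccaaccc
Epcam: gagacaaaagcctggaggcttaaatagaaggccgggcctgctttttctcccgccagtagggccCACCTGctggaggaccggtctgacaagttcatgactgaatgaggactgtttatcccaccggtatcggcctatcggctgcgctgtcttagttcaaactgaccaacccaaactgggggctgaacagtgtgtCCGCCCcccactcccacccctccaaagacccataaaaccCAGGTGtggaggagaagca
The Cldn4 window holds 1 E-box, which begins 14 bases before the start, and 1 GC box 44 bases before it. Cldn3 has no E-box in this window and 1 GC box, 236 bases before the start. Epcam has E-boxes at 187 and 19 bases and a GC box at 58 bases before the start. Of the windows not shown, those of Krt7, Krt8 and Krt18 hold 1 E-box each. A Cldn7 window holds 2 E-boxes and the other Cldn7 window 0. The windows not shown that hold an E-box overlap annotated exons. Of all 32851 promoter windows of this length, 17.2% hold the E-box, 32.7% the GC box and 0.116% the GRHL motif. A match is a description of the letters, and its absence says nothing about the factor.

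Per kilobase of the principal transcript, Epcam was the most abundant of the 10 genes, with 1086 ± 115 normalised reads per kilobase in maternal BSp and 929 ± 96.0 in control (SD, n = 3 and n = 2), and it ranked first in each of the 5 libraries. Krt18, Cldn3 and Krt8 followed, with means over all libraries of 492 ± 173, 474 ± 156 and 394 ± 119 normalised reads per kilobase (SD, n = 5). Cldn7 (310 ± 102), Cldn4 (302 ± 253), Krt7 (214 ± 96.7), Cd24a (205 ± 128) and Cdh1 (177 ± 33.2) came next on this scale, and Krt19 was last at 78.4 ± 39.0. Epcam stood above every other member in every library, and the lowest library of Cdh1 (131) lay above the highest of Krt19 (126), while the other neighbours in this order overlapped in their ranges. For Krt7 the length used matters, since its merged exons add up to 7049 bases against 4094 in the principal transcript, and per kilobase of merged exons its mean was 124. Together the 10 genes took 0.573%, 0.746% and 0.573% of reads in maternal BSp replicates 1, 2 and 3, against 0.658% and 0.739% in control replicates 1 and 2.

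**Figure D1:**
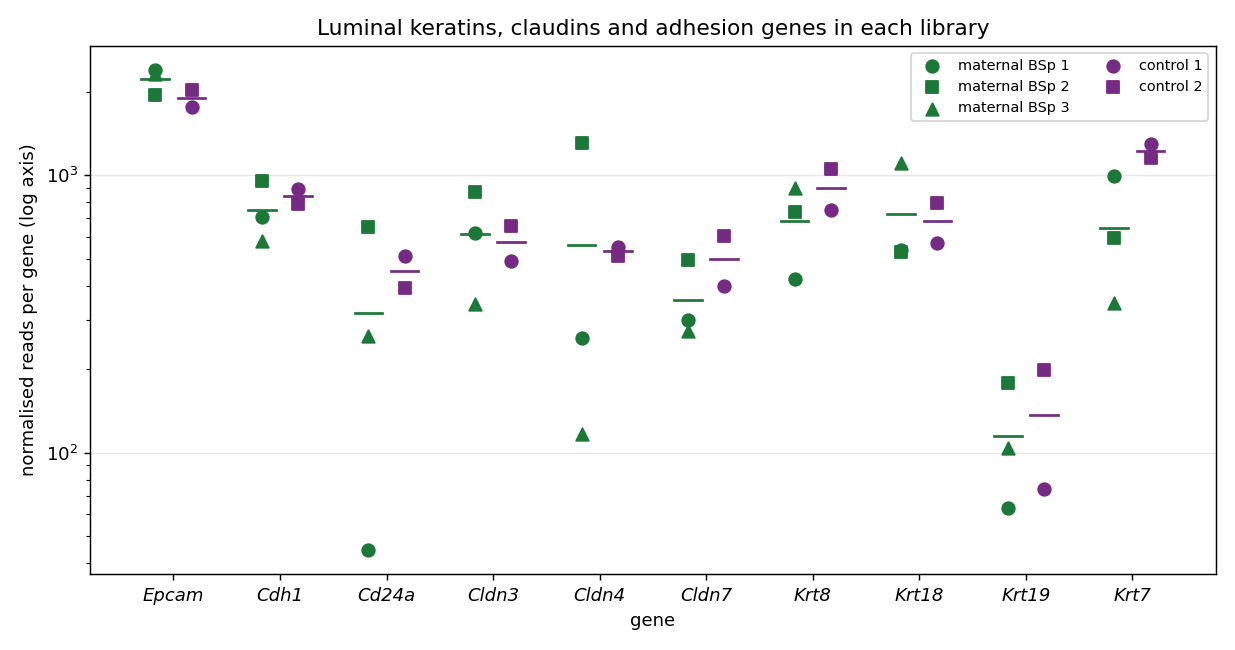
Normalised reads per gene (log axis) of the 10 genes in each library, with maternal BSp to the left of control, 1 marker shape for each replicate and a horizontal line at the group mean (n = 3 and n = 2). Epcam stays between 1756 and 2393 in all libraries, while Cldn4 runs between 116 and 1306 and Cd24a between 44.5 and 650.2 among the maternal BSp libraries.

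No member was called between the groups by unweighted limma, edgeR or DESeq2. Limma with array weights called 699 of 9870 genes, with Cd24a the only member among them. The unweighted limma test on log2(value + 1) over all 9870 genes, with Benjamini-Hochberg adjustment, called 0 genes (0%), of which 0 were members, with adjusted p between 0.456 and 0.997 for the members. The edgeR quasi-likelihood test on recovered reads also called 0 genes, and DESeq2 called 100, none of them a member. By limma 1101 genes (11.2%) had an unadjusted p under 0.05, 8.01% of all tested as higher and 3.14% as lower, and edgeR gave 971, with 0 of the 10 members by either. DESeq2 gave 1163 such genes with 2 members (Krt7 and Cldn7), and array weights gave 2838 of 9870 with 2 members (Krt8 and Cd24a). Median-of-ratios, upper quartile and TMM scaling gave 1056, 1092 and 1056 such genes, each with 1 member (Krt7). Limma gave 2 members (Cldn4 and Cd24a) without maternal BSp replicate 2, and 1 (Krt7) without maternal BSp replicate 1. With both controls kept, the limma count was 666 without maternal BSp replicate 1, 1514 without replicate 2 and 1638 without replicate 3 of that group. Of the members 3 had a higher and 7 a lower estimate in maternal BSp, with a median log2 fold change of -0.32, beside a median of 0.21 over all genes tested, 6235 of which were higher. Only 1 higher member, Epcam, remained with upper quartile, TMM or median-of-ratios scaling, which put the median of all genes at 0.08, 0.027 and 0.003, and that of the members at -0.45, -0.51 and -0.53. The libraries of the groups did not overlap for 1 member, Krt7, which was lower, beside 33.0% of all genes tested (23.8% higher and 9.21% lower). For libraries that do not overlap, the share of members lying lower was thus near that of all genes. In bulk tumours, fewer cells of a type and less RNA per cell cannot be told apart.

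**Figure D2:**
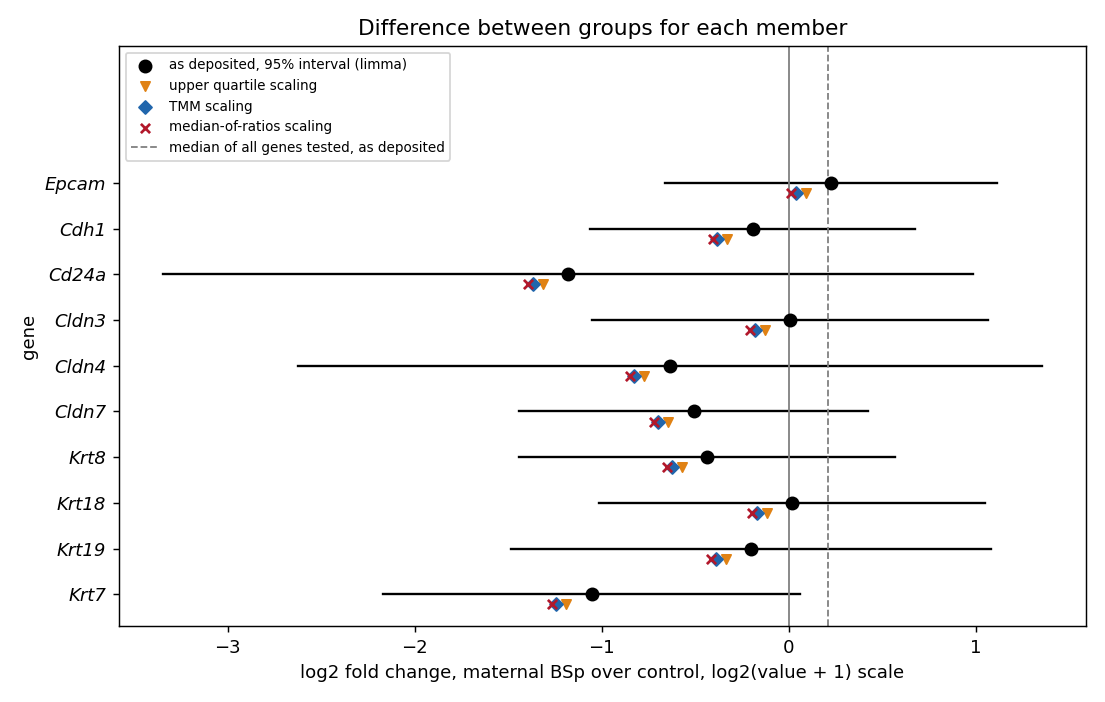
Estimate for each gene, as the log2 of maternal BSp over control, on the log2(value + 1) scale as deposited, with its 95% interval from limma (black), and with 3 other scalings (coloured markers below). All 10 intervals include 0, and each of the other scalings moves every estimate to the left.

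Among the keratins, Krt7 was the member whose groups stood apart. Krt7 read 992, 592 and 346 in maternal BSp replicates 1, 2 and 3, against 1293 and 1155 in control replicates 1 and 2. Every maternal BSp library lay below both controls, with replicate 3 the lowest. The means were 643 ± 326 in maternal BSp and 1224 ± 97.5 in control (SD, n = 3 and n = 2), a log2 fold change of -1.05 (SE 0.48, 95% interval -2.17 to 0.059, limma adjusted p 0.456). Without maternal BSp replicate 3 it was -0.67. In the authors' deposited table of 2447 rows, Krt7 is the only member listed, with the authors' means of 643 for BSp and 1224 for control and an unadjusted p of 0.0363. Per the file headers, that p comes from an analysis of variance by the authors and not from the fit used here.

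Keratins 8 and 18 form the principal filament pair of simple epithelia. Krt8 read 422, 735 and 900.3 in maternal BSp replicates 1, 2 and 3, against 749 and 1048 in control replicates 1 and 2. Krt18 read 535, 530.4 and 1107 in the maternal BSp libraries and 567 and 796 in the controls. The groups overlapped for both genes, and maternal BSp replicate 3 was the highest of its group for both, although it was the lowest library for Krt7. Krt8 had a log2 fold change of -0.44 (SE 0.44) and Krt18 of 0.017 (SE 0.45), the second of which turned negative with each of the 3 other scalings. The estimate for Krt8 was -0.12 without maternal BSp replicate 1, -0.20 without control replicate 2, -0.68 without control replicate 1, and -0.67 once maternal BSp replicate 3 was left out. Krt19, a type I keratin that lacks most of the tail domain, read 63.2, 178 and 104 in maternal BSp replicates 1, 2 and 3, against 74 and 199 in control replicates 1 and 2. The value in control replicate 1 rests on 74 reads, with an exact 95% Poisson interval of 58.1 to 92.9 that covers counting error only. Krt19 was low in replicate 1 of each group, and its log2 fold change was -0.20 (SE 0.56), but 0.50 when control replicate 2 was left out and 0.16 when maternal BSp replicate 1 was.

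The adhesion genes ranged from the steadiest to the most variable of the members. Epcam read 2393, 1949 and 2306 in maternal BSp replicates 1, 2 and 3, against 1756 and 2033 in control replicates 1 and 2. The highest library was 1.36 times the lowest, where the median of all genes tested was 2.49, and only 4.55% of tested genes had a residual SD on the log2 scale at or below its 0.15. Its groups overlapped, since control replicate 2 read above maternal BSp replicate 2, and the log2 fold change was 0.22 (SE 0.39), or 0.014 above the median of all genes. It was 0.12 without control replicate 1 and 0.061 without both libraries highest in salivary transcripts. Cdh1, which encodes E-cadherin, the calcium-dependent adhesion protein of epithelia, read 709, 951 and 579 in the maternal BSp libraries and 889 and 787 in the controls. Both controls lay inside the range of the maternal BSp libraries, with a log2 fold change of -0.19 (SE 0.38, 95% interval -1.06 to 0.68). For Cdh1 this was -0.027 without maternal BSp replicate 3, -0.38 with replicate 2 of that group left out and -0.11 without control replicate 1.

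Cd24a read 44.5, 650.2 and 263 in maternal BSp replicates 1, 2 and 3, against 512 and 393 in control replicates 1 and 2. Maternal BSp replicate 1 was far below every other library, at 340 reads with an exact 95% Poisson interval of 39.9 to 49.5 normalised reads, and replicate 2 was above both controls. The highest of the maternal BSp libraries was 14.6 times the lowest, where the median of all genes was 1.93, and 97.9% of tested genes had a residual SD at or below that of Cd24a (1.60 on the log2 scale). The log2 fold change of -1.18 (SE 0.94, limma adjusted p 0.633) was -0.12 without maternal BSp replicate 1, -2.04 without maternal BSp replicate 2 and 0.073 without both libraries highest in salivary transcripts (replicate 1 of each group). Limma with array weights called 699 of 9870 genes, and weighted maternal BSp replicate 1 at 2.97 and replicates 2 and 3 at 0.337 and 0.456. It gave Cd24a a log2 fold change of -2.65 with an adjusted p of 0.0461. The adjusted p lay between 0.0461 and 1 over the alternatives. Cd24a is also known from B cells, neutrophils and red cell precursors. The 5 B cell markers summed to 34.2 in maternal BSp replicate 1, against 2.01 or less in each other library. Neutrophil markers summed to 14.8, 9.84 and 9.15 in maternal BSp replicates 1, 2 and 3, against 12 and 11.6 in control replicates 1 and 2. Globin and erythroid genes summed to 131, 0.664 and 1204 in the maternal BSp libraries and to 494 and 148 in the controls. The part of these cells in the Cd24a values was not tested.

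Claudins are proteins that cross the membrane 4 times and whose combination sets which ions and solutes pass between cells. Cldn4 read 259, 1306 and 116 in maternal BSp replicates 1, 2 and 3, against 552 and 509.6 in control replicates 1 and 2. The controls were close to each other, and the maternal BSp libraries spread to either side of them, with the highest 11.2 times the lowest. The group means were 560.3 ± 649 in maternal BSp and 531 ± 30.0 in control (SD, n = 3 and n = 2), yet the log2 fold change was -0.64 (SE 0.86), and it was 0.13 without maternal BSp replicate 3, but -1.61 once replicate 2 was left out instead. Mean and log2 estimate thus differ in sign for Cldn4. Cldn3 read 617, 873 and 344 in the maternal BSp libraries, against 492 and 656 in the controls, so that its groups overlapped. Its libraries followed the same order within maternal BSp as those of Cldn4, over a 2.54-fold range, and its log2 fold change was 0.0053 (SE 0.46), negative with each of the 3 other scalings. Cldn7, the claudin bound by Epcam, read 301, 493 and 273 in maternal BSp replicates 1, 2 and 3, against 398 and 603 in control replicates 1 and 2. Maternal BSp replicate 2 lay between the controls and the other maternal BSp libraries lay below both, with a log2 fold change of -0.51 (SE 0.41, 95% interval -1.44 to 0.42). For Cldn7 this was -0.21 without control replicate 2, -0.81 without control replicate 1, and -0.77 once maternal BSp replicate 2 was left out.

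Ratios between genes within a library, taken as a difference of log2(value + 1), were compared for 12 pairs. They depend little on how libraries are scaled except where a gene is low, as Krt5 is in maternal BSp replicate 3. An exact two-sided permutation test over the 10 splits of 3 against 2 libraries cannot go below 0.2, so none could pass, and every Benjamini-Hochberg adjusted p over the 12 pairs lay between 0.72 and 1. For Krt8 over Krt18 the log2 ratio was -0.34, 0.47 and -0.30 in maternal BSp replicates 1, 2 and 3, against 0.40 in each control. The controls thus shared the same proportion of the pair, while maternal BSp replicate 2 lay above it and the other maternal BSp libraries below. Epcam over Cldn7 stood at 2.98, 1.98 and 3.07 in the maternal BSp libraries and at 2.14 and 1.75 in the controls, a difference of 0.73 (exact permutation p = 0.4). Cldn3 over Cldn4, the neighbouring genes on chromosome 5, stood at 1.25, -0.58 and 1.56 in the maternal BSp libraries and at -0.17 and 0.36 in the controls. Maternal BSp replicate 2 was the library with the most Cldn4 relative to Cldn3. The groups did not overlap for Cldn3 over Cldn7, with 1.03, 0.82 and 0.33 in maternal BSp and 0.31 and 0.12 in control (difference 0.51, exact permutation p = 0.2), nor for Krt8 over the basal keratin gene Krt5.

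Krt8 relative to the basal keratin gene Krt5 was higher in each maternal BSp library than in either control. The log2 fold change of Krt8 alone was negative, at -0.44, and that of Krt5 was lower still, at -3.02. The log2 ratio of Krt8 over Krt5 was 3.14, 3.46 and 7.86 in maternal BSp replicates 1, 2 and 3, against 1.88 and 2.59 in control replicates 1 and 2. The difference of group means was 2.58 (exact permutation p = 0.2, the smallest the test can give), and it was 1.06 without maternal BSp replicate 3 and between 2.21 and 2.65 with pseudocounts of 5 and 0.5. Krt18 over Krt14, the corresponding type I pair, stood at 0.086, -0.63 and 4.66 in the maternal BSp libraries and at -1.19 and 0.055 in the controls, so these groups overlapped, and their difference of 1.94 was 0.29 without maternal BSp replicate 3. In maternal BSp replicate 3, Krt5 read 2.89 and Krt14 42.9, while Krt8 and Krt18 were the highest of that group. Among 5 keratins tested of a basal list that goes beyond Krt5, Krt14 and Krt17, all 5 had lower estimates under every scaling. As deposited, 3635 of all 9870 genes tested were lower. The median log2 fold change of the 5 keratins was -1.92, with none passing the limma adjusted threshold. Krt6a, Krt5 and Krt17 had log2 fold changes of -3.30, -3.02 and -1.52, at limma unadjusted p of 0.00930, 0.0215 and 0.0394. Of all genes tested, 3.14% were lower at a limma unadjusted p under 0.05.

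**Figure D3:**
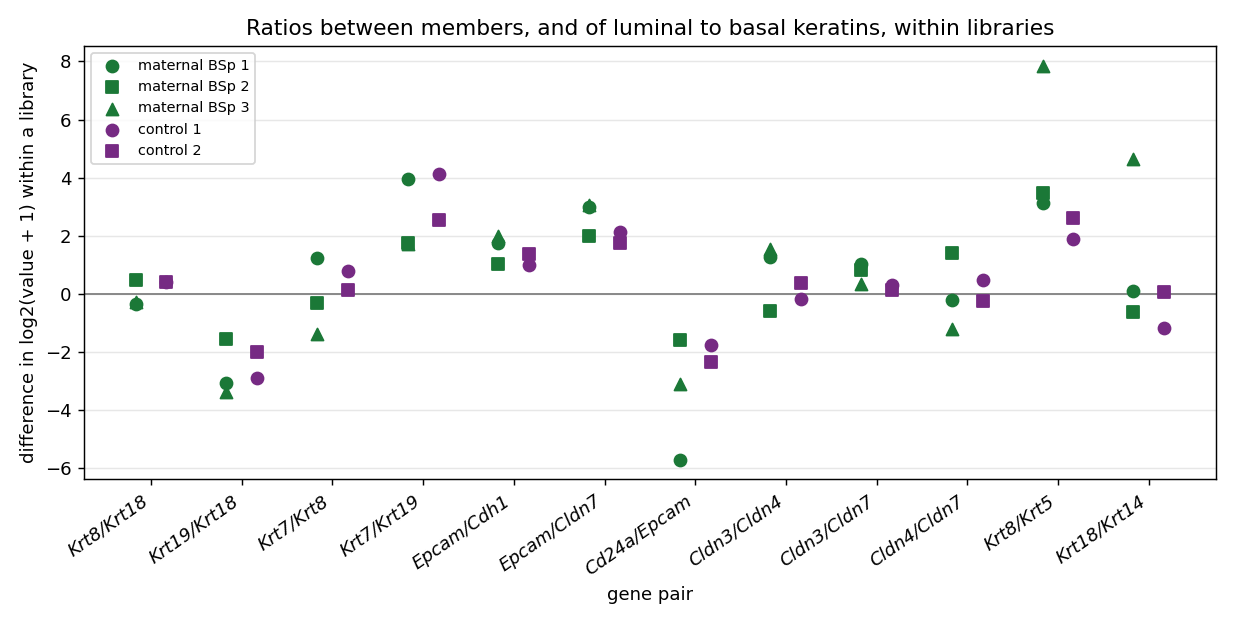
Difference in log2(value + 1) of 2 genes within each library for 12 pairs, with maternal BSp to the left of control and 1 marker for each library. Maternal BSp replicate 3 reaches 7.86 for Krt8 over Krt5 and 4.66 for Krt18 over Krt14, and maternal BSp replicate 1 lies at -5.72 for Cd24a over Epcam.

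The members did not share a single pattern over the libraries. As the median of the 10 genes, each as log2(value + 1) minus its mean over the 5 libraries, they lay at -0.37, 0.31 and -0.26 in maternal BSp replicates 1, 2 and 3, against 0.014 and 0.42 in control replicates 1 and 2. All genes tested lay at -0.0058, 0.35 and -0.049 in the maternal BSp libraries and at -0.12 and -0.092 in the controls on the same scale. Cldn7 was closest to the members' median profile, of which each member is a part, with a root mean square difference of 0.15. Cd24a was farthest, at 1.16. Krt18 (0.54), Krt7 (0.69), Cldn4 (0.95) and Cd24a lay farther from it than the median of the 2260 other genes compared, 0.50. The genes outside the list nearest to that profile, among those with a mean of at least 100, were Pold2 (0.068), G3bp2, Trip6, Tubg1, Ube2r2, Pdap1, Snx5 and Strap (0.10), over 5 libraries and as a description with no test. Cdh1, Cldn3, Cldn4 and Cd24a were highest in maternal BSp replicate 2, Krt8, Krt19 and Cldn7 in control replicate 2, Krt18 in maternal BSp replicate 3, Epcam in maternal BSp replicate 1 and Krt7 in control replicate 1.

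Other junction genes were examined by list, with no gene passing the limma adjusted threshold in any of them. Over all 9870 genes tested, 6235 had higher estimates as deposited, with a median log2 fold change of 0.21. With upper quartile, median-of-ratios and TMM scaling, 5432, 4930 and 5085 genes were higher. Among the partners of claudins in the tight junction 11 of 16 tested had higher estimates in maternal BSp, 10 with each of the 3 other scalings, with a median log2 fold change of 0.42. Marveld3, which encodes a membrane protein of the occludin family, read 48.3, 41.8 and 67.0 in maternal BSp replicates 1, 2 and 3, against 12 and 19.0 in control replicates 1 and 2. Its groups did not overlap, with a log2 fold change of 1.70 (SE 0.40, limma adjusted p 0.407). The authors' deposited table lists Marveld3 with an unadjusted p of 0.0148. In this list 3 of 16 genes lay higher without overlap and 1 lower, beside 23.8% and 9.21% of all genes tested. Tjp1, which encodes the scaffold protein ZO-1, read 231, 186 and 121 in the maternal BSp libraries and 88 and 80.7 in the controls, a log2 fold change of 1.03 (SE 0.38). Cgnl1, a relative of the junction protein cingulin, had a log2 fold change of 1.10. Of the other 20 claudins only 4 reached the mean of 10, all 4 with higher estimates under every scaling, and Cldn25, Cldn8 and Cldn1 had log2 fold changes of 1.05, 0.49 and 0.46. Cldn13, Cldn14, Cldn16 and Cldn20 were at 0 in every library, which at this depth allows up to 0.0538 normalised reads in maternal BSp replicate 2 and up to 3 in control replicate 1.

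Among the adherens junction partners 7 of 11 tested had higher estimates, with a median of 0.18, but 4 of 11 with median-of-ratios and 5 with TMM scaling. As deposited, 6235 of all 9870 genes tested were higher, with a median of 0.21. The catenin genes, whose products link cadherins to actin, were the members of that list with the smallest p. Ctnna1 read 731, 701 and 508 in maternal BSp replicates 1, 2 and 3, against 325 and 372 in control replicates 1 and 2. Its groups did not overlap, nor did those of Ctnnb1 and Ctnnd1, and the log2 fold changes were 0.88 (SE 0.36), 0.58 (SE 0.40) and 0.60 (SE 0.39). These 3 of 11 genes stand beside 23.8% of all genes tested that lay higher without overlap. Their cadherin partner Cdh1 had -0.19. Of 9 desmosome genes 5 had higher estimates under every scaling, with a median of 0.22 as deposited, and Pkp2, Dsg2 and Evpl had 0.52, 0.67 and -0.83.

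Among other surface proteins and proteases of epithelia 8 of 10 tested had lower estimates under every scaling, with a median log2 fold change of -0.28. Over all genes tested, 3635 of 9870 had lower estimates as deposited. In this list 5 of 10 genes lay lower without overlap, beside 9.21% of all genes tested. The membrane protease gene St14 had a log2 fold change of -0.60 (SE 0.41) and the transport protein gene Mal2 -0.63 (SE 0.33).

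Regulators of the epithelial state gave 7 higher estimates of 9 tested, and 5 with each of the 3 other scalings. As deposited, 6235 of all 9870 genes tested were higher. Grhl2, whose product is known to activate Cdh1 and Cldn4, read 55.1, 105 and 91.2 in maternal BSp replicates 1, 2 and 3, against 30 and 26.0 in control replicates 1 and 2. Every maternal BSp library was above both controls, with a log2 fold change of 1.499 (SE 0.39, limma adjusted p 0.407). In the authors' deposited table the unadjusted p of Grhl2 is 0.0312. Of the 9 regulators 5 lay higher without overlap and 1 lower, beside 23.8% and 9.21% of all genes tested. Ehf, an ETS factor of epithelia, and Esrp2, a splicing factor of epithelia, had 0.85 (SE 0.39) and 0.83 (SE 0.38). Of the 7 mesenchymal transition genes tested 4 had higher estimates, or 3 with TMM and median-of-ratios scaling. Among these, Cdh2 and Snai2 had -1.44 and -1.02, and Twist1 read 106 in maternal BSp replicate 3 and between 1.13 and 6 in every other library, with a log2 fold change of 1.60 (SE 1.49). Of the remaining cytoskeleton genes, Plec, Krt23 and Macf1 had log2 fold changes of -0.87, -0.99 and 0.30, with 2 of 4 tested on each side.

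**Figure D4:**
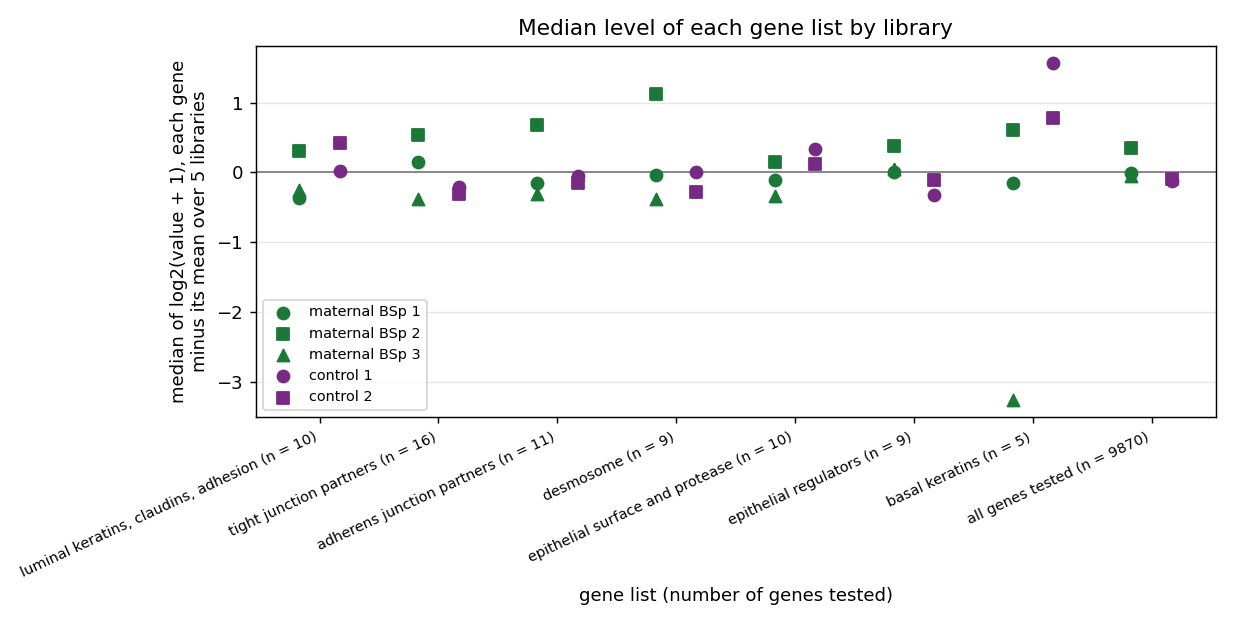
Median over the tested genes of each list, each as log2(value + 1) minus its mean over the 5 libraries, with maternal BSp to the left of control. The luminal list stays between -0.37 and 0.42, while the basal keratins run between -3.27 in maternal BSp replicate 3 and 1.57 in control replicate 1, and the desmosome list reaches 1.12 in maternal BSp replicate 2.

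Markers of other cell types varied between libraries within each group, and their part in the values above was not tested. The 6 myoepithelial markers, led by Tagln and Trp63, summed to 209, 210.04 and 76.9 in maternal BSp replicates 1, 2 and 3, against 398 and 199 in control replicates 1 and 2. All 4 that were tested had lower estimates under every scaling, as the basal keratins did, with a median log2 fold change of -0.97. As deposited, 3635 of all 9870 genes tested were lower. Acta2, the smooth muscle actin gene of myoepithelial cells, read 26.4, 16.3 and 24.0 in the maternal BSp libraries and 51 and 34.8 in the controls, without overlap (limma adjusted p 0.444). It was the only 1 of the 4 to lie lower without overlap, beside 9.21% of all genes tested. The authors' deposited table lists Acta2 and Cnn1 with unadjusted p of 0.0152 and 0.0384. The 7 fibroblast markers summed to 734, 1070.3 and 297 in the maternal BSp libraries and to 1076 and 317 in the controls. For the 7 immune markers found, led by Lyz2 and Csf1r, the sums were 447, 818 and 237 in maternal BSp and 391 and 300.1 in control. Endothelial markers, with Pecam1 and Cdh5 in front, summed to between 41.7 and 58.2 in maternal BSp and between 37.4 and 60 in control. Neutrophil markers stayed between 9.15 and 14.8 in maternal BSp and between 11.6 and 12 in control, with Ly6g at 0 in every library. The globin and erythroid genes, led by Hba-a1 and Hbb-bs, summed to 131, 0.664 and 1204 in maternal BSp replicates 1, 2 and 3, against 494 and 148 in control replicates 1 and 2. Adipocyte markers, mostly Fabp4, summed to between 27.8 and 28.9 in maternal BSp and to 39 and 5.38 in control, and skeletal muscle markers stayed at or below 28.0 in maternal BSp and 16 in control. Salivary genes, led by Smr3a and Bpifa2, summed to 2489, 17.2 and 492 in the maternal BSp libraries and 729 and 52.4 in the controls, with Muc19 and Smgc at 0 throughout. In maternal BSp replicate 3 that sum was 479 from Aqp5 alone, a water channel gene, and milk protein genes summed to 1149 there.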

How the data were processed

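Tumour RNA of 3 maternal BSp and 2 control libraries was sequenced with a strand-specific mRNA kit, per the labels' protocols. The submitters' processing notes name STAR, DESeq, FastQC, cutadapt and Trim Galore, without versions, and the builds GRCm38 and mm10. How reads were counted (tool, annotation, strand) is not given in the sources used here. The deposited normalised table holds a signal of reads per gene, which the authors scaled to 1106813 in each library, as many as control replicate 1 holds. Dividing by the step of 1 read gave a whole number, to within 0.1, for 100% of values. For control replicate 1, the scaling target, that step is 1, so the check cannot recover its reads. Its whole numbers were taken as reads. The authors deposited a second table of 2447 rows with group means and unadjusted p-values, of which 1 set of columns was used.

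Genes with a mean of at least 10 were tested on log2(value + 1) with limma-trend (limma 3.58.1, R 4.3.3), without covariates, with p-values adjusted by Benjamini-Hochberg and called under 0.05. Such fold changes understate those of low genes. Alternatives were no filter or a mean of 50, a pseudocount of 0.5 or 5, further scalings, leaving libraries out, a replicate block, array weights, edgeR 4.0.16 and DESeq2 1.42.0 (independent filtering at 0.05) on recovered reads. The limma, edgeR and DESeq2 fits were tested on simulated data. Lengths come from the principal transcript of GENCODE M21, which names 35529 features. Beside the members, the up to 3 genes of each list with the smallest p are named, and of marker lists the 2 most abundant. For 1 list, 1 such gene is not reported here. Other markers are named for where they lay, a choice made after their values were seen. The members and lists were chosen with earlier results of these data known. Planned protein sequences were not used here. Poisson intervals and floors of 3 reads cover counting error only.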

Additional observations from a re-analysis of the deposited data

How the results depend on the processing

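Limits come from 2 control libraries, the shallowest of the 5, and from the spread of the maternal BSp libraries. The count of genes called, 0 in the limma fit, was 23 with the replicate block, 699 with array weights, 100 with DESeq2, and between 0 and 1 with a library left out (1 without maternal BSp replicate 3). The cause was not tested. The members' median log2 fold change lay between -0.63 and -0.12 over 18 alternatives, always negative. Among these, the replicate block gave the same estimates as leaving out maternal BSp replicate 3, because no control shares that replicate number. The count of members higher in maternal BSp, 3 as deposited, was 1 with median-of-ratios, upper quartile or TMM scaling, 1 with edgeR, 1 with DESeq2, and between 1 (without control replicate 1) and 4 (without control replicate 2) with a library left out. Without both libraries highest in salivary transcripts, an alternative chosen after seeing the data, it was 2 and the median was -0.31.

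Estimates of 5 members changed sign under some setting. Krt18 was -0.20 with median-of-ratios, -0.12 with upper quartile and -0.17 with TMM scaling, -0.33 with the replicate block, -0.20 with array weights, -0.056 with edgeR, -0.074 with DESeq2 and -0.055 without the libraries with salivary transcripts. Cldn3 was -0.21, -0.13 and -0.18 with the same 3 scalings, -0.0091 with totals that leave out Lars2, Gm26917 and mitochondrial transcripts, -0.14 with edgeR, -0.17 with DESeq2 and -0.26 without the libraries with salivary transcripts. Cldn4 was 0.13 with the replicate block, the same estimate as without maternal BSp replicate 3. Cd24a was 0.073 without the libraries with salivary transcripts. With each library left out in turn, Krt18 ran between -0.33 and 0.26, Krt19 between -0.91 and 0.50, Cldn3 between -0.30 and 0.37 and Cldn4 between -1.61 and 0.13. The log2 ratio of Krt19 over Krt18 ran between -0.77 and 0.24 and that of Cldn4 over Cldn7 between -0.84 and 0.48. Without the libraries with salivary transcripts the ratio of Cldn4 over Cldn7 was 0.33 and that of Cd24a over Epcam 0.012. The replicate numbers are not stated to mark a litter or batch. Deviations of libraries with the same replicate number correlated at 0.094 and -0.092. In the sample titles, however, control replicates 1 and 2 are numbered 2 and 3. Libraries matched by title number correlated at 0.092 and 0.16. Deviations of the 2 controls are equal and opposite by construction, so these values cannot decide whether libraries were paired. The block used the replicate numbers and changed no call of a member.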
